A study of Mus musculus with 6 samples.

Results

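The laminin chains of the basement membrane are described here by 6 genes, *Lama3*, *Lamb3*, *Lama5*, *Lamb1*, *Lamc1* and *Lamb2*, which were chosen by name from 23698 gene rows. Each gene had a row of its own, and 0 of them stood in a row with joined gene names. A further 4 laminin genes, *Lama1*, *Lama2*, *Lama4* and *Lamc3*, were read beside them.

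The study followed translation and transcript isoforms in mouse skin and in cultured squamous cell carcinoma cells (SCCc). All 3 libraries analysed here came from SCCc, which are keratinocytes from P0 back skin with the genotype Hras G12V; Tgfbr2 fl/fl KO, an established line used at passages 10 to 15. There was 1 ribosome profiling library, which sequences the mRNA fragments protected by ribosomes (footprints), and 2 RNA-seq libraries, which measure mRNA abundance. Wild-type and long-read libraries were not analysed here, so values compare genes within SCCc and not SCCc with wild-type keratinocytes. SCCc are 1 line grown in culture, and no basement membrane of a tissue was sampled. Nothing in the labels says that the RNA-seq replicates were separate cultures, so their spread may be technical.

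The depth was 10707930 exon counts in RNA-seq replicate 1, 14003713 in replicate 2 and 3549555 for footprints, with 3198469 of the latter on coding sequence (CDS). Levels are given in RPKM, which is the count divided by the counted length and scaled to the sum of exon counts of the library, over the CDS for footprints and over exons for RNA-seq. Between the RNA-seq replicates, counts of 9862 genes differed beyond sampling noise (chi-square divided by its degrees of freedom, 7.52), which compares these libraries and not conditions. The log2 ratio of replicate 2 to replicate 1 had an SD of 0.20 over those genes and lay between −0.07 and 0.13 for the 6 chains. Footprints were measured in 1 library without a replicate here, so their intervals are exact 95% Poisson or binomial intervals that cover counting error only.

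The label of the cells was checked against marker genes. All 6 keratinocyte markers passed the filters and summed to 14159 and 16321 RPKM in the RNA-seq replicates and 9918 RPKM in footprints, with *Krt5* the most abundant. The 8 fibroblast markers summed to 10.3 and 16.0 RPKM in RNA-seq and 0.870 RPKM in footprints, and their most abundant gene was *Col3a1*, at 3.89 and 5.49 RPKM. Footprints were 0 for 7 of these 8 genes, the defining collagens *Col1a1*, *Col1a2* and *Col3a1* included. The 5 endothelial markers summed to 0.624 and 0.697 RPKM in RNA-seq and 1.16 RPKM in footprints, with *Kdr* the most abundant and *Pecam1* and *Cdh5* at 0 footprints. The 5 melanocyte markers summed to 5.46 and 5.52 RPKM in RNA-seq and 0.300 RPKM in footprints, mostly *Pmel*. The 5 leukocyte markers summed to 37.9 and 46.1 RPKM in RNA-seq and 10.3 RPKM in footprints, mostly *Cd68*, while *Ptprc* had 0 footprints. Fibroblasts and endothelial cells also make laminin chains, and in bulk libraries fewer cells of a type and less RNA per cell cannot be told apart.

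Laminins are secreted trimers of an α, a β and a γ chain, joined along a coiled coil inside the cell, and they form the sheet to which epithelial cells attach. Laminin-332 holds the α chain *Lama3* and the β chain *Lamb3*, and it anchors basal keratinocytes through integrin α6β4 of the hemidesmosome. Laminin-511 consists of *Lama5*, *Lamb1* and *Lamc1* and binds integrins of the β1 class, and in laminin-521 the β chain *Lamb2* takes the place of *Lamb1*. Loss of a laminin-332 chain causes skin blistering.

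The 5′ ends of the mRNAs are shown first, because the study asked how 5′ ends relate to translation. RefSeq start sites on GRCm38.p6 were held for 4 of the 6 chains, *Lamb3*, *Lama5*, *Lamb2* and *Lamb1*, with *Lama3* and *Lamc1* not matched. *Lamb3* had 2 sites on chromosome 1 on the plus strand, at 193301994 and 193302243, *Lama5* had 1 on chromosome 2 on the minus strand, at 180225859, *Lamb2* had 1 on chromosome 9 on the plus strand, at 108479862, and *Lamb1* had 1 on chromosome 12 on the plus strand, at 31265293. The lines give 10 bases of promoter in lower case and the first 15 bases from the start site in capitals, 5′ to 3′.
Lamb3 first site: tgaggccgccAGCAGTGGGGCTACA
Lamb3 second site: agctcacctgAGAACACCTGGGTAA
Lama5: cccaaactagACTTGCCGGGCTCCT
Lamb2: cttgctttccAACTTTACTCAAAGT
Lamb1: ttctaattccCTTCTTTGGGCCGGT
*Lamb1* was the 1 gene of these whose start site opened with C and then at least 4 C or T bases, the form of a terminal oligopyrimidine (TOP) motif, read on the strand of the gene. Of 32851 RefSeq start sites, 823 (2.51%) opened that way. The match describes these letters at an annotated site and does not show which start SCCc used.

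The start codons of the same 4 genes were read from GENCODE M21 transcripts on GRCm38, because the bases around a start codon form the Kozak context that initiating ribosomes read. They lie at chr12:31265421-31265423 for *Lamb1*, chr1:193303520-193303522 for *Lamb3*, chr9:108480059-108480061 for *Lamb2* and, on the minus strand, chr2:180225800-180225802 for *Lama5*. Capitals mark the start codon.
Lamb1: cggcaggaaATGgaa
Lamb3: tggctcaggATGaca
Lamb2: acggtcgggATGgag
Lama5: agcaggaaaATGgcg
All 4 had a purine at the third base before the codon, as did 84.4% of 19596 genes. *Lamb1*, *Lamb2* and *Lama5* had G after it, as did 49.5% of those genes, while *Lamb3* had A.

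The chains of laminin-332 were the more abundant at both levels. *Lama3*, the α chain of laminin-332, had RNA levels of 119.5 and 114 RPKM in replicates 1 and 2, from 13223 and 16505 counts. Its footprint level was 77.7 RPKM (95% interval 74.9 to 80.7), from 2754 footprints on 9978 nt. *Lamb3*, its β chain, had RNA levels of 151 and 157 RPKM and a footprint level of 154 RPKM (147 to 161), from 1918 footprints on 3504 nt.

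The chains of laminin-511 lay lower, and their order differed between RNA and footprints. *Lama5*, the α chain, had 46.7 and 51.2 RPKM in RNA and 28.1 RPKM in footprints (26.5 to 29.8), from 1114 footprints on 11154 nt. *Lamb1*, the β chain, had 52.6 and 52.9 RPKM in RNA and 72.1 RPKM in footprints (68.4 to 76.0), from 1409 footprints. *Lamc1*, the γ chain shared by most laminins, had 24.8 and 24.9 RPKM in RNA and 41.3 RPKM in footprints (38.3 to 44.5), from 707 footprints. In RNA the α chain had 1.88 and 2.06 times the density of the γ chain, whereas in footprints on the CDS, over the counted length, the α chain had the lowest density of the trimer. Without division by length the γ chain was the lowest, and with footprints counted over exons the α and γ chains could not be ranked. *Lamb2*, the β chain of laminin-521, was the least abundant of the 6, with 5.55 and 5.98 RPKM in RNA and 3.42 RPKM in footprints (2.64 to 4.35), from 65.5 footprints.

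**Figure D1:**
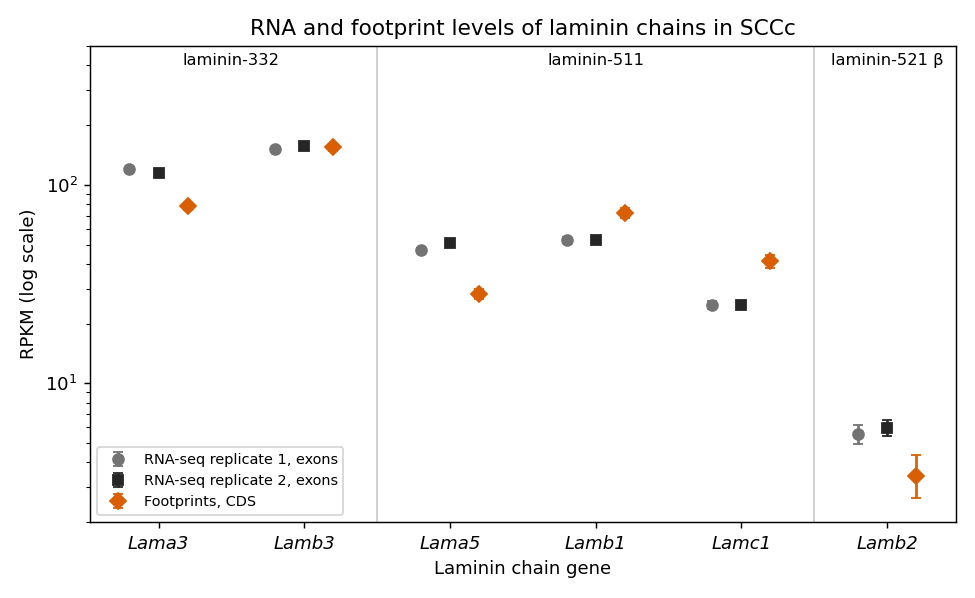
RPKM on a log axis of the 6 laminin chains grouped by trimer, with circles and squares for RNA-seq replicates 1 and 2 on exons, diamonds for footprints on the CDS and bars for 95% Poisson intervals of the counts, each library on its own scale. Footprints lie below RNA for *Lama3* (77.7 against 119.5 and 114), *Lama5* (28.1 against 46.7 and 51.2) and *Lamb2* (3.42 against 5.55 and 5.98), and above it for *Lamb1* and *Lamc1*.

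Ranked by RNA, the order of the 6 chains was *Lamb3*, *Lama3*, *Lamb1*, *Lama5*, *Lamc1* and *Lamb2* in both replicates. The neighbours *Lamb1* and *Lama5* differed beyond counting error in replicate 1 but not in replicate 2, as the log2 ratio of *Lama5* to *Lamb1* was −0.17 (95% interval −0.24 to −0.11) in replicate 1 and −0.05 (−0.10 to 0.01) in replicate 2. In footprints the order was *Lamb3*, *Lama3*, *Lamb1*, *Lamc1*, *Lama5* and *Lamb2*. Its closest neighbours were *Lama3* and *Lamb1*, with a log2 ratio of *Lamb1* to *Lama3* of −0.11 (−0.20 to −0.01), whose interval for counting error ends near 0. Among the 9862 genes, *Lamb3* stood at percentile 95.9 in RNA and 89.5 in footprints, and *Lamb2* at percentile 20.0 and 12.4. *Lama5* fell from percentile 83.4 in RNA to 59.9 in footprints, and *Lamc1* stood at 66.3 and 68.6.

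Laminin-332 and laminin-511 were then compared by the geometric mean RPKM of their chains among the 6 genes, *Lama3* and *Lamb3* against *Lama5*, *Lamb1* and *Lamc1*. In RNA the laminin-332 chains averaged 134 RPKM in both replicates, and the laminin-511 chains averaged 39.4 and 40.7 RPKM. The log2 ratio was 1.77 in replicate 1 and 1.72 in replicate 2, a mean of 1.74 with an SD of 0.04 (n = 2), or 3.35-fold. In footprints the averages were 109 and 43.8 RPKM, a log2 ratio of 1.32 with a counting error of 0.03, or 2.50-fold. By these averages the lead of laminin-332 was smaller in footprints than in RNA, by 0.42 on the log2 scale, which exceeds both the replicate spread and the counting error. The averages are not of like chains, as the γ chain *Lamc1* has no laminin-332 counterpart here. For the α chains, the log2 lead was larger in footprints (1.47) than in the RNA-seq replicates (1.36 and 1.16). The counting interval in footprints (1.37 to 1.57) overlapped that in replicate 1 (1.31 to 1.40). For *Lamb3* over *Lamb1* the log2 lead was smaller in footprints than in the replicates (1.10 against 1.52 and 1.57). With *Lamb2* in place of *Lamb1*, which gives laminin-521, the ratios were 2.81 in RNA and 2.79 in footprints.

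The difference was not alike for the α and β chains, as their shares within each chain type show. Of the summed RPKM of the α chains *Lama3* and *Lama5*, *Lama3* made up 71.9% and 69.0% in the RNA-seq replicates and 73.4% in footprints. These α chain shares hold at the counted *Lama3* length. With the length of its short transcript, described below, *Lama3* had 5.33 times the footprint density of *Lama5*, in place of 2.76. In RNA it had 4.76 and 4.15 times, in place of 2.56 and 2.23, so the *Lama5* shares were smaller. Of the β chains, *Lamb3* made up 72.1% and 72.7% in RNA and 67.1% in footprints, and *Lamb1* made up 25.2% and 24.5% in RNA and 31.4% in footprints. *Lamb2* held 2.66% and 2.77% of the β chain density in RNA and 1.49% in footprints. The laminin-511 share was therefore larger in footprints than in RNA for the β chain, while for the α chain it was smaller in footprints than in both RNA-seq replicates. The gap between the α chain shares of footprints and RNA was smaller than the gap between the replicates for replicate 1 and larger for replicate 2.

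**Figure D2:**
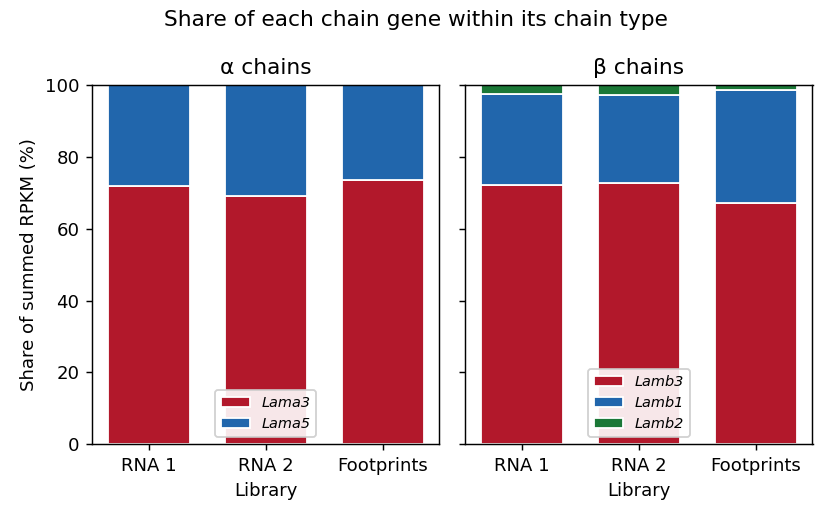
Share in percent of the summed RPKM of the α and of the β chains held by each gene, with 1 bar per library and red for laminin-332, blue for laminin-511 and green for *Lamb2*. *Lamb1* widens from 25.2% and 24.5% of the β chains in RNA to 31.4% in footprints. At the counted *Lama3* length, *Lama5* holds 28.1% and 31.0% of the α chains in RNA and 26.6% in footprints. With the length of the short *Lama3* transcript its shares are smaller.

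Since the chains of a trimer join 1 to 1, their densities were set against each other within each trimer. In laminin-511, the footprint density of *Lama5* was 0.390 times that of *Lamb1* (0.360 to 0.422), a log2 ratio of −1.36, beside 0.887 and 0.967 times in RNA. *Lamc1* had 0.573 times the footprint density of *Lamb1* (0.523 to 0.627), a log2 ratio of −0.80, beside 0.471 and 0.470 times in RNA. *Lamb2* had 0.0474 times the footprint density of *Lamb1* (0.0364 to 0.0607), a log2 ratio of −4.40, beside 0.105 and 0.113 times in RNA. The β chain thus had the highest footprint density of laminin-511. The α chain had the lowest on the CDS over the counted length, but not without division by length (−0.34 for *Lama5* and −0.99 for *Lamc1*, relative to *Lamb1*). With footprints counted over exons (−1.33 and −1.39) these 2 chains could not be ranked, as *Lamc1* differed from *Lama5* by −0.06 (−0.19 to 0.08), an interval added after seeing the data. In laminin-332, *Lamb3* had 1.98 times the footprint density of *Lama3* (1.87 to 2.10), a log2 ratio of 0.99, beside 1.26 and 1.38 times in RNA. Over the counted lengths, densities of chains that join 1 to 1 were therefore unequal in both trimers, with the β chain above the α chain in each.

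The *Lama3* densities depend on which transcript is taken as the length. *Lama3* lies on chromosome 18 at 12333819 to 12583013 on the plus strand (GRCm38, GENCODE M21) and has 2 coding transcripts, a long one with a CDS of 9990 nt and a short one with a CDS of 5172 nt. They share 5001 nt of CDS, and the counted 9978 nt span nearly all of both. Counts per gene do not separate these transcripts, and the short one is the form known from epidermis. With the lengths of the short transcript, an alternative chosen after seeing the data, *Lama3* had 150 RPKM in footprints and 222 and 212 RPKM in RNA. The log2 footprint ratio of *Lamb3* to *Lama3* was then 0.04 (−0.04 to 0.12), a difference not detectable at this depth, in place of 0.99. The RNA ratio turned with that length, to −0.56 and −0.43 in the replicates. Without division by length the footprint ratio was −0.52. An antisense gene, *Gm29200*, shares 197 nt of *Lama3* exons, and whether the counting used strand is not given in the sources used here.

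Translational efficiency was the log2 ratio of footprint RPKM to mean RNA-seq RPKM, relative to the median of the genes passing the filters. Those filters were more than 1 RPKM in each RNA-seq library, a mean normalised count over 25 and footprints on a counted CDS, and all 6 chains passed. *Lamc1* had the highest value of the 6, at 0.39 (0.40 and 0.38 against RNA-seq replicates 1 and 2), followed by *Lamb1* at 0.11 (0.12 and 0.09). *Lamb3* stood at −0.34 (−0.30 and −0.38) and *Lama3* at −0.93 (−0.96 and −0.91). *Lamb2* at −1.10 (−1.04 and −1.16) and *Lama5* at −1.14 (−1.07 and −1.22) were lowest. *Lamb2* could not be told from either neighbour, as it differed from *Lama5* by 0.04 (95% counting interval −0.34 to 0.40) and lay 0.17 below *Lama3* (−0.19 to 0.54). The other neighbouring pairs differed beyond the counting interval, *Lamb3* from *Lama3* by 0.59 (0.51 to 0.67), *Lamb1* from *Lamb3* by 0.45 (0.35 to 0.55) and *Lamc1* from *Lamb1* by 0.28 (0.15 to 0.41), the last with a sign that depends on the setting.

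Past the limit of −1 lay 2 of the 6 chains, *Lama5* and *Lamb2*, beside 21.1% of the 9862 genes, and past 1 lay 0 of the 6, beside 20.7%. Under 2 alternatives 1 chain was past 1, *Lamb1* without division by length (1.05) and *Lamc1* relative to genes of long CDS (1.16). Among all genes, 1894 and 4132 were then above 1, against 2046 in the first setting. Of the 6, 4 were below the median gene and 2 above it. The median of the 6 chains was −0.63, but it was 0.06 with footprints counted over exons, 0.23 without division by length and 0.13 relative to genes of long CDS. *Lamb3* was above 0 under those 3 settings and *Lama3* without division by length (0.03), while *Lamc1* was below 0 with annotated lengths (−0.08) and *Lamb1* with a minimum of 100 counts (−0.29). The zero at genes of long CDS and the minimum of 100 counts shift all chains alike, so their sign changes are not particular to a chain. The number of chains below −1 was 0 with footprints counted over exons, without division by length, relative to genes of long CDS and with RNA-seq counted over the CDS, and 1 with a pseudocount of 1 RPKM. In that order, 1928, 2084, 920, 1919 and 1828 of all genes were below −1, against 2077 in the first setting. The number of chains was 3 with annotated lengths, where *Lama3* (−1.46) joined *Lama5* (−1.70) and *Lamb2* (−1.58). All genes below −1 were not counted under that setting, so the 3 have no share of all genes beside them. Genes with long coding sequences had lower values than all passing genes. The 1375 passing genes with a counted CDS of at least 3000 nt, a class that holds all 6 chains, had a median of −0.77, and 41.7% of them lay below −1. Within that class *Lamc1* stood at percentile 87.9, *Lamb1* at 81.9, *Lamb3* at 67.1, *Lama3* at 43.5, *Lamb2* at 37.6 and *Lama5* at 35.8. Hence 3 of the 6 chains were above the median of genes with long coding sequences.

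**Figure D3:**
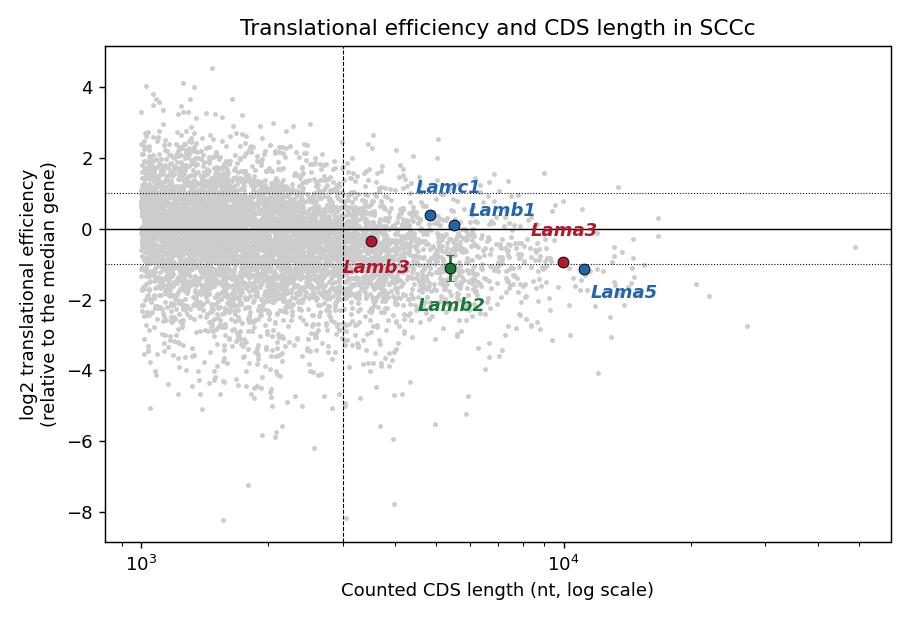
Log2 translational efficiency relative to the median gene against counted CDS length in nt on a log axis, for passing genes with a CDS of at least 1000 nt (grey), laminin-332 chains (red), laminin-511 chains (blue) and *Lamb2* (green), with 95% counting intervals of the footprints. Dotted lines mark 1 and −1 and the dashed line marks 3000 nt, and the chains run from *Lamc1* at 0.39 to *Lama5* at −1.14, the longest chain at 11154 nt.

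In both trimers the α chain had a lower translational efficiency than the other chains described here. In laminin-332 the values were −0.93 for *Lama3* and −0.34 for *Lamb3*, and in laminin-511 they were −1.14 for *Lama5*, 0.11 for *Lamb1* and 0.39 for *Lamc1*. There were 7 alternative settings that can move a difference between 2 genes, some of them barely. *Lamb3* exceeded *Lama3* in 7, by 0.39 to 1.23, and *Lamb1* exceeded *Lama5* in 7, by 1.19 to 2.03. Either RNA-seq replicate left out and the pseudocount of 1 RPKM could hardly turn these signs, so they add little to the tally. The short *Lama3* length, not among the 7, put *Lama3* at −0.88, also below *Lamb3* at −0.34. *Lamc1* exceeded *Lamb1* in 4 of the 7. These 4 include either replicate left out (0.29 and 0.28) and the pseudocount (0.27), which barely moved the first value of 0.28. Of the settings that changed regions or lengths, RNA-seq counted over the CDS alone kept the sign (0.30). The sign turned with footprints counted over exons, without division by length and with annotated lengths, to as low as −0.41. The α chains also have the longest coding sequences, with 9978 and 11154 nt counted against 3504 to 5502 nt for the other 4 chains, and the part of length in this order was not tested. The mean translational efficiency was −0.63 for the laminin-332 chains and −0.21 for the laminin-511 chains among the 6, a difference of −0.42 (SD 0.04 between RNA-seq replicates). The second mean includes *Lamc1* (0.39), a γ chain without a laminin-332 counterpart here. By chain type, *Lamb3* lay below *Lamb1* (−0.34 against 0.11). *Lama3* lay above *Lama5* (−0.93 against −1.14), by less against RNA-seq replicate 1 (−0.96 and −1.07) than against replicate 2 (−0.91 and −1.22). For replicate 1 the counting intervals of the log2 ratio of *Lama3* to *Lama5* overlapped, 1.37 to 1.57 in footprints and 1.31 to 1.40 in RNA. The direction for the α chains is therefore uncertain. With *Lamb2* in place of *Lamb1* the difference of the means was −0.02, within the spread of 0.067 of the first difference, so none was detectable.

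The gene nearest to each chain was found by Euclidean distance over the log2 RPKM of the 3 libraries, among passing genes with a counted CDS of at least 3000 nt. *Lamc1* lay nearest to *Palld*, an actin-associated protein, at a distance of 0.06, with 24.1 and 25.7 RPKM in RNA and 41.3 RPKM in footprints. *Lama5* lay nearest to *Sympk*, a scaffold of mRNA 3′ end processing, at 0.07, *Lamb1* to the RNA helicase *Dhx9* at 0.13, and *Lamb2* to *Rapgef2*, an exchange factor for Rap proteins, at 0.15. *Lamb3* and *Lama3* had more distant neighbours, the non-muscle myosin heavy chain *Myh9* at 0.28 and *Nckap1*, a subunit of the WAVE complex, at 0.33. All 6 neighbours were thus genes outside the laminin family.

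The 4 further laminin genes were at or near the detection limit, and each had a mean RNA level under 1 RPKM. *Lama1*, the α chain of embryonic basement membranes, had 0 counts in all 3 libraries, which allows up to 3 counts in each (1-sided 95% limit). *Lama2*, the α chain of muscle laminin, had 1 footprint and 1 count in each RNA-seq replicate. *Lama4*, an α chain of vessel walls, had 0 footprints with 2 and 3.95 RNA counts. *Lamc3*, a γ chain, had 3 footprints with 0 and 5 RNA counts. The least abundant of the 6 chains, *Lamb2*, was well above these levels.

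Other components of the basement membrane scaffold were unevenly present. Of 14 scaffold genes, 7 passed the filters and 7 had a mean RNA level under 1 RPKM, among them *Nid1* and *Nid2*, the nidogens that link laminin to collagen IV, with 0 footprints each. The genes of highest RNA level were *Col18a1* at 166 and 190 RPKM, the proteoglycan *Agrn* at 39.1 and 41.5 RPKM and the anchoring fibril collagen *Col7a1* at 33.0 and 33.3 RPKM. The median translational efficiency of the 7 was −1.02, with 4 below −1 and 1 above 1, beside 21.1% and 20.7% of all passing genes. Both numbers depend on the replicate. *Col4a2* stood at 1.02 and 0.93 against RNA-seq replicates 1 and 2, and *Col18a1* at −0.91 and −1.12. Of the 7, 6 have a counted CDS of at least 3000 nt, the class in which 41.7% lay below −1. *Col4a1*, a chain of the collagen IV network, was the highest at 1.38, and *Ntn4*, a laminin-related netrin, the lowest at −3.38 from 6 footprints. The 6 laminin chains, from −1.14 to 0.39, lay inside that range.

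Genes of the receptors and the hemidesmosome, to which laminin-332 binds, all passed the filters, 12 of 12. Highest in RNA were *Col17a1*, the hemidesmosomal collagen, at 946 and 1024 RPKM, the syndecan *Sdc1* at 384 and 446 RPKM and *Itgb4*, the β4 integrin subunit, at 237 and 261 RPKM. *Itgb4* was therefore above *Lamb3* in RNA. The median translational efficiency was −0.13, with 2 above 1 and 3 below −1, near the 20.7% and 21.1% of all passing genes. The number above 1 depends on the replicate. *Sdc1* (1.14 and 0.91 against RNA-seq replicates 1 and 2) and *Cd151* (1.03 and 0.74) passed 1 against replicate 1 alone. *Sdc4* was highest at 1.39 and *Dst*, the plakin that ties keratins to the hemidesmosome, lowest at −2.75. Of 5 enzymes that process laminins or related matrix proteins, 2 passed, *Mmp14* at 46.1 and 47.6 RPKM and −0.12, and *Bmp1*, a procollagen protease, at 26.9 and 31.4 RPKM and −1.09. Next in RNA was *Mmp2*, at 0.568 and 0.796 RPKM.

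**Figure D4:**
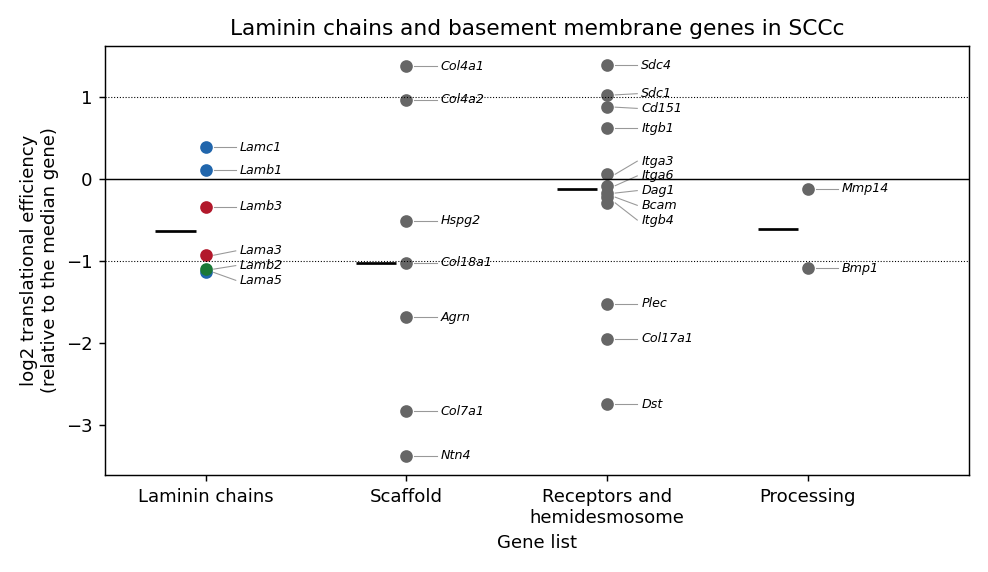
Log2 translational efficiency relative to the median gene for laminin chains (red for laminin-332, blue for laminin-511, green for *Lamb2*) and for the passing genes of 3 basement membrane lists, with short bars at medians and dotted lines at 1 and −1. Medians are −0.63 for the 6 laminin chains, −1.02 for the scaffold, −0.13 for receptors and hemidesmosome and −0.61 for processing enzymes, the midpoint of 2 genes.

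The modified genes of SCCc were also read. *Hras* had 128 footprints and RNA levels of 48.5 and 50.9 RPKM, close to those of *Lama5* and *Lamb1*, and *Tgfbr2* had 193 footprints and 61.4 and 59.0 RPKM. Counts per gene show neither a base change nor the loss of single exons, so they check neither modification.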

How the data were processed

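Of SCCc, 1 ribosome profiling library and 2 RNA-seq libraries were used, and the long-read library was not analysed here. The authors aligned reads to GRCm38 with STAR 2.6.1, filtered rRNA, tRNA and mitochondrial fragments out of the footprints with Bowtie2 2.4.1, and counted genes with Plastid over exons, CDS and UTRs. The deposited counts are estimated counts, fractional in part and not normalized. The RPKM deposited by the authors divides them by counted length and a library total above the sum of exon counts. Exon counts were 1.75% of that total for footprints, and 21.1% and 21.3% in RNA-seq replicates 1 and 2. RPKM was therefore computed again from the sum of exon counts (numpy 2.4.6, pandas 2.3.3, Python 3.11.15, scipy 1.17.1). Counted lengths come from the deposited files. Counts were rounded to whole numbers for the DESeq2 1.42.0 size factors of the base mean and for edgeR 4.0.16 TMM factors.

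With 1 condition no contrast between conditions was tested and no p-value is given. A test of library type by condition needs both conditions and was not run. The members and lists were chosen with earlier results of these data known. The named genes were the 6 chains, 4 further laminin genes, in each list the 3 highest in RNA and the highest and lowest in translational efficiency, the nearest gene of each chain, *Hras* and *Tgfbr2*. *Nid1*, *Nid2* and further list genes were named after their values were seen. Gene structures came from GENCODE M21 and start sites from RefSeq. Calculations were tested on simulated counts with 200 genes changed 4-fold, of which 98.5% were recovered within 0.5 on the log2 scale. The changed genes had at least 100 footprints, more than *Lamb2* has, and 100 counts in RNA-seq replicate 1. The simulated noise was sampling noise alone, which the real replicates exceeded. The share therefore checks the calculation and not the accuracy for these data. The alternatives left out either RNA-seq replicate or changed regions, lengths, a pseudocount of 1 RPKM, filters, normalization and trimer composition. Reads carry no stated molecular identifiers, so PCR copies count as reads and intervals cover counting error only. Results for 1 gene of the family are not reported here.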

Additional observations from a re-analysis of the deposited data

Results flagged for a closer look

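Footprints on untranslated regions were outside the comparisons of chains, and several exceeded the 3 counts that a count of 0 allows (1-sided 95% limit) in this library, which has no control sample here. *Lamb3* had 44.1 footprints on the 289 nt of its 5′UTR (95% Poisson interval 32.1 to 59.2), with 197 and 246 RNA-seq counts on the same stretch in replicates 1 and 2. Footprint density there was 1.84 below that of its CDS on the log2 scale, a log2 ratio of −1.84, beside −1.36 and −1.48 in RNA-seq. *Lamc1* had 9 footprints on its 5′UTR of 247 nt (4.12 to 17.1), beside 0.693 and 1.66 RNA-seq counts, so its footprints were found on a stretch with few RNA-seq reads. *Lamb1* had 16.1 footprints on its 5′UTR of 127 nt (9.19 to 26.1), a log2 density of −1.02 relative to its CDS, beside −0.98 and −0.76 in RNA-seq.

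On its 3′UTR, *Lamb3* had 4.05 footprints over 371 nt (1.12 to 10.3), an interval that includes the limit. The 5′UTR of *Lama3* had no counted positions. The cause of these footprints was not tested.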

How the results depend on the processing

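Across 14 alternatives, 27 recomputed values were set aside as nearly fixed by construction, those under edgeR and DESeq2 factors and those of the other chains under the short *Lama3* length. Of the others, 54 of 111 log2 values stayed within the spread between RNA-seq replicates or the counting error, 47 moved and 10 took the other sign. The tally includes left-out replicates, which moved none but can hardly exceed that spread, and shifts of the zero, which move all chains alike. Numbers of genes and chains were kept if within 1.5 times the first value, a limit set by choice, and 19 of 28 were. The RNA and footprint ratios of laminin-332 to laminin-511 chains stayed above 0 in every alternative run for them. Their difference in translational efficiency was below 0 beyond its spread of 0.067 in these alternatives except with *Lamb2* in place of *Lamb1*, where it was no longer detectable. No alternative left out the γ chain *Lamc1*.

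With RNA-seq counted over the CDS, the median translational efficiency of the 6 chains was −0.39 and 0 chains were below −1. With footprints counted over exons, the log2 ratio of laminin-332 to laminin-511 was 1.43 in footprints and −0.31 in translational efficiency, the median was 0.06, 0 chains were below −1 and *Lamb3* stood at 0.27. *Lama5* over *Lamb1* was then −1.33, *Lamc1* over *Lamb1* −1.39, 2 values that cannot be ranked, and *Lamb3* over *Lama3* 0.82. Exon lengths include UTRs, on which few footprints lay. A pseudocount of 1 RPKM left 1 chain below −1. Without division by length, the laminin-332 ratio was 1.47 in RNA, 1.15 in footprints and −0.32 in translational efficiency, the median was 0.23, 0 chains were below −1, *Lama3* and *Lamb3* stood at 0.03 and 0.42, and *Lamb1* at 1.05 was past 1. The footprint ratios were then −0.34 for *Lama5* over *Lamb1*, −0.99 for *Lamc1* over *Lamb1* and −0.52 for *Lamb3* over *Lama3*.

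Annotated lengths gave an RNA ratio of 1.68, a median of −0.85 and −0.08 for *Lamc1*. They put 3 chains below −1, *Lama3* at −1.46, *Lama5* at −1.70 and *Lamb2* at −1.58. That number was added after seeing the data, and all genes below −1 were not counted under this setting. A minimum of 100 counts in every library, which *Lamb2* did not pass, gave a median of −1.03 with *Lamb2* kept in it and −0.29 for *Lamb1*. Of all genes, 908 were then above 1 and 757 below −1, against 2046 and 2077, from fewer genes. How many genes passed that minimum was not recorded, so these numbers give no share to set beside the chains. The median of the 5 chains that passed, added after seeing the data, was −0.73, which does not differ from −0.63 beyond its spread, and the 2 chains of these below −1 were *Lama3* and *Lama5*. Relative to genes with a CDS of at least 3000 nt the median was 0.13, *Lamb3* stood at 0.43 and *Lamc1* at 1.16, past 1, 0 chains were below −1, and 4132 genes were above 1 and 920 below −1.

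With *Lamb2* in place of *Lamb1*, the laminin-332 ratios were 2.81 in RNA, 2.79 in footprints and −0.02 in translational efficiency. Another set of laminin-332 chains is not reported here. The short *Lama3* lengths, chosen after seeing the data, gave 2.19 in RNA, 1.80 in footprints and 0.04 for *Lamb3* over *Lama3*. Apart from the changes of genes and lengths themselves, the cause was not tested. No paired analysis was possible because footprints and RNA-seq share no more than 1 replicate number. Depth limits *Lamb2* most, at 65.5 footprints.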
